A study of Mus musculus with 5 samples.

Results

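Endothelial cells of a mouse liver tumor, the Hepa1-6 tumor endothelial cells (TECs), were compared with the liver sinusoidal endothelial cells (LSECs) of mouse liver. Of the 5 gene expression arrays of the study, 2 were used, the array titled for Hepa1-6 TECs and the array titled for LSECs, so that there was 1 array in each group. The question was which genes differ between the vessels of a hepatoma and the sinusoids of mouse liver. Whether the livers that gave the LSECs bore tumors is not stated in the sources used here. The labels give the strain C57BL/6 and the tissue liver for both arrays, and neither group carried an engineered allele or received a drug. Hepa1-6 is a hepatoma line of C57L mice, and the methods describe orthotopic growth of the tumor in the liver of female mice aged 6 weeks. In both groups the cells were isolated with magnetic beads against CD31 (Pecam1), a surface protein of endothelial cells that platelets and some leukocytes also carry. The number of mice behind each array is not given in the sources used here. The other 3 arrays, which appear only as side values, held TECs of the human hepatoma lines HAK-1B and KYN-2 grown in mice and Hepa1-6 cells in culture. The labels give C57BL/6 for the HAK-1B and KYN-2 TECs too, and the methods name C57BL/6 or nude mice without saying which line grew in which strain.

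LSECs line the sinusoids of the liver. They are fenestrated, lack a continuous basement membrane, take up waste molecules through scavenger receptors and send Wnt, BMP and other signals to hepatocytes. Tumor vessels grow under the influence of VEGF, and their endothelium commonly loses traits of the organ it came from. A preparation of CD31-positive cells from a tumor can also hold leukocytes, stromal cells and tumor cells.

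Each array carried 56605 probes of 60 bases for 37074 gene names. A level in this report is the log2 of a probe's intensity after quantile normalization over the 2 arrays, and a ratio is the level in Hepa1-6 TECs minus that in LSECs. A gene was measured by the probe with the highest mean level among its probes that the scanner software marked as well above background on both arrays. Levels given for the other 3 arrays were normalized over all 5 arrays, which is another scale. Levels of different genes come from different probes and are not compared. With 1 array a group there was no replicate check, no test was made and no error can be given for a ratio. As a guide to precision, spots of the same probe repeated within an array had a median coefficient of variation of 2.73% in LSECs and 3.08% in Hepa1-6 TECs, and different probes of the same gene had ratios with a median SD of 0.46 over 6286 genes. Neither covers the spread between animals. Since a bulk array sees the RNA of all cells, fewer cells of a type and less RNA per cell cannot be told apart.

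The Hepa1-6 TEC array stood apart from the other arrays in its dim probes. Probes well above background made up 78.1% on this array and 54.1% on the LSEC array, against 57.6% for HAK-1B TECs, 54.7% for KYN-2 TECs and 44.6% for cultured Hepa1-6 cells. Of the 56605 probes, 29953 were well above background on both arrays, 14240 on the Hepa1-6 TEC array only and 655 on the LSEC array only. The median signal was 45.4 on the LSEC array and 85.6 on the Hepa1-6 TEC array, whereas the 75th percentiles were 474 and 510.2. The spike-in RNAs also differed, since the brightest spike-in probe read 98429 on the LSEC array and 2945 on the Hepa1-6 TEC array, with 4517 for HAK-1B TECs and 5315 for KYN-2 TECs, so that it was low on all 3 TEC arrays. The probe dimmest on the LSEC array read 6.35 there and 64.8 on the Hepa1-6 TEC array. The 3 TEC arrays shared a slide and the LSEC array was on another, so that slide cannot be told apart from group. For these reasons only probes well above background on both arrays were kept. No probe was saturated.

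A check of sex-linked genes went against the statement of the methods that the mice were female. Transcripts of the Y chromosome were well above background in LSECs and in the TECs of all 3 tumors, and not in cultured Hepa1-6 cells. Eif2s3y, a translation initiation factor gene of the Y chromosome, had a level of 10.44 in LSECs and 7.91 in Hepa1-6 TECs, which was 5.78-fold lower. Ddx3y had levels of 7.94 and 6.196, Uty 7.22 and 6.25, and Kdm5d 8.14 and 6.196. Thus all 4 Y-linked genes read lower in Hepa1-6 TECs than in LSECs, and 3 of them by less than 4-fold. Xist, the RNA that silences an X chromosome in female cells, had a level of 2.32 in LSECs, not well above background, and of 7.39 in Hepa1-6 TECs, at least 4.10-fold higher. Normalized over all 5 arrays, Xist was at 8.68 in cultured Hepa1-6 cells and was not well above background in HAK-1B or KYN-2 TECs. Of the 5 arrays, Hepa1-6 TECs gave the only array on which Xist and the Y-linked genes were both well above background.

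**Figure D1:**
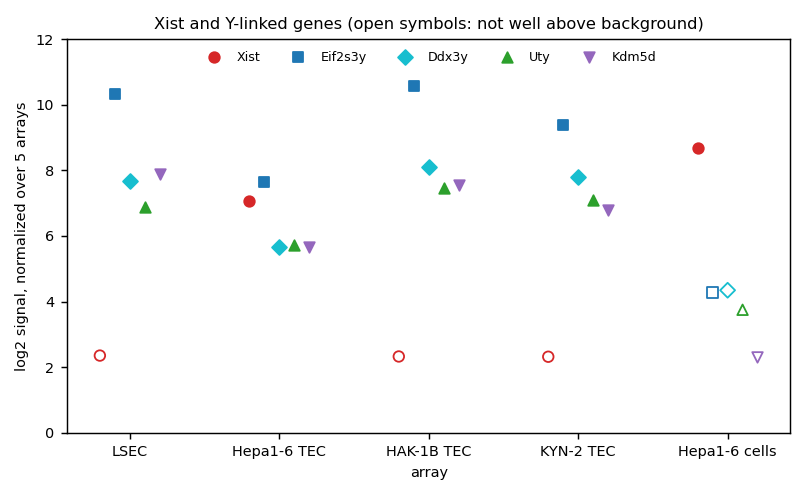
Levels of Xist and 4 Y-linked genes on the 5 arrays, as log2 intensity normalized over the 5 arrays on the vertical axis, 1 point per array, with open points for probes not well above background. Eif2s3y is high in LSECs, HAK-1B TECs and KYN-2 TECs, lower in Hepa1-6 TECs and lowest in cultured Hepa1-6 cells, whereas Xist is highest in cultured Hepa1-6 cells and second in Hepa1-6 TECs.

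Measured on both arrays were 19814 gene names, of which 13420 were plain gene symbols and the remainder lincRNA, clone and other names. Beyond 4-fold, 730 of the 13420 symbols were higher in Hepa1-6 TECs (5.44% of those measured) and 1027 were lower (7.65%). Over all 19814 names, 894 were higher (4.51%) and 1845 were lower (9.31%), so that 32.6% of the names beyond 4-fold were higher. This split depended on the scaling, and 52.4% were higher when each array was scaled to its 75th percentile. These shares are the background for every count of list members below. The median ratio of all gene symbols was -0.16, with an SD of 1.38. Beyond 16-fold there were 127 higher and 80 lower symbols, and beyond 64-fold 15 and 10. Large ratios were more frequent among dim genes, since 21.1% of the 3355 symbols with the lowest mean level lay beyond 4-fold and 8.11% of the 3355 brightest. Other normalizations, background correction and choices of probe were run gene by gene for 155 named genes. They were not run for some genes named below, such as Serpina1c, G6pc, Maf, Erg and Rspo3. Of the genes below that were run, Flt1, Hpd, Tdo2, Dll1, Col4a5, Clec4f, Clec9a and Ms4a1 were beyond 4-fold lower here. These 8 lay within 4-fold under at least 1 alternative. At the boundary, Nme1 (4.01-fold) and Nxpe5 (4.02-fold) lay just inside on the higher side and Nov (3.999-fold) and Map4k1 (3.998-fold) just outside. On the lower side Myo7a (4.001-fold) and Olfr1344 (4.002-fold) lay just inside and Esrrb (3.999-fold) and Ell3 (3.998-fold) just outside.

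**Figure D2:**
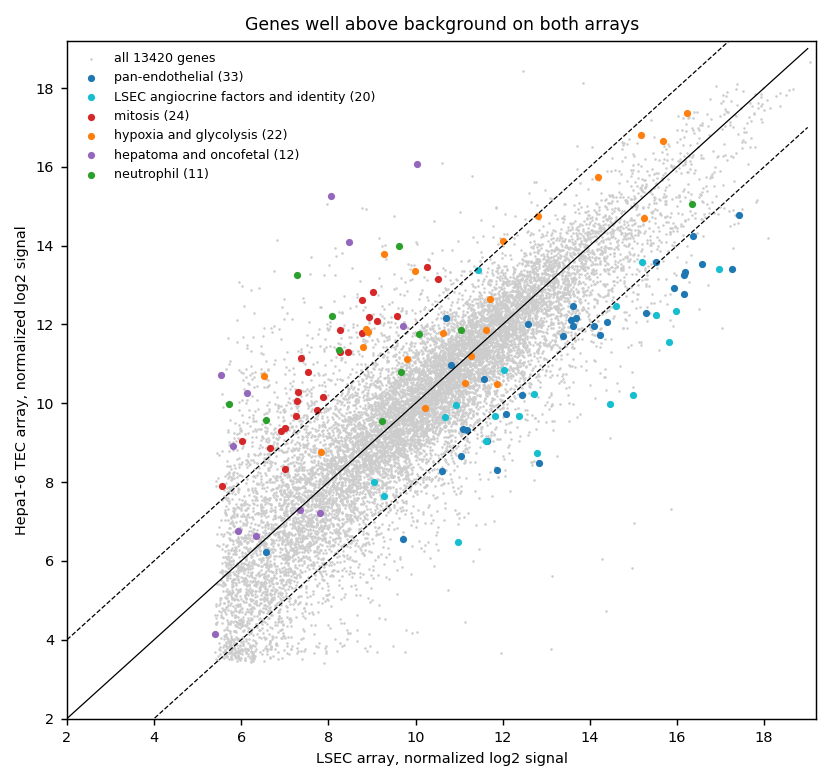
Level of each of the 13420 gene symbols in Hepa1-6 TECs (vertical axis, log2 intensity) against its level in LSECs (horizontal axis, log2 intensity), 1 point per gene, with 6 gene lists in colour, a solid line at equal levels and dashed lines at 4-fold. The mitosis genes lie above the diagonal and most pan-endothelial genes below it.

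The genes with the highest ratios included a fetal liver protein, secreted signals and transcription factors of epithelial tissue. Chil3, a chitinase-like protein that activated macrophages secrete, had a level of 6.82 in LSECs and 14.14 in Hepa1-6 TECs and was 159.7-fold higher. Afp, the plasma protein of the fetal liver that hepatomas re-express, had levels of 8.06 and 15.26 and was 148-fold higher. Bmp7, a BMP ligand, followed with levels of 5.94 and 13.08 (141-fold). Enpp2, which makes lysophosphatidic acid, was 136-fold higher by 1 probe and had a ratio of -1.21 by its other probe, so its ratio rests on the probe chosen. The next genes were the semaphorin Sema3b (123-fold), the T-box factor Tbx3 (100.7-fold), the peptidoglycan-binding granule protein Pglyrp1 (96.8-fold), the ETS factor Etv4 (92.2-fold) and Foxa2, a transcription factor of the foregut and liver (73.8-fold).

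On the other arrays these genes differed in where they were high. Normalized over all 5 arrays, Afp was at 15.92 in cultured Hepa1-6 cells, 6.21 in HAK-1B TECs and 8.06 in KYN-2 TECs. Foxa2 was at 13.08 in cultured cells, 2.26 in HAK-1B TECs and 11.56 in KYN-2 TECs, and Bmp7 at 12.85, 6.35 and 4.73. Chil3 was high throughout, at 12.17 in cultured cells, 13.22 in HAK-1B TECs and 10.26 in KYN-2 TECs. Among the 30 symbols next in order, Il1r2 (62.9-fold), Ffar2 (42.3-fold), Kcnn4 (41.5-fold) and Gzma (38.3-fold) were not well above background in cultured Hepa1-6 cells. Habp2, Perp, Akr1c19 and Bche were well above background in cultured cells and in neither HAK-1B nor KYN-2 TECs.

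Of all 730 higher symbols, 593 (81.2%) were well above background on the array of cultured Hepa1-6 cells, and 385 (52.7%) were brighter there than on the Hepa1-6 TEC array. For all 13420 symbols the shares were 80.4% and 51.9%. Of the 1027 lower symbols, 370 (36.0%) were well above background in cultured Hepa1-6 cells. These shares are descriptions of 1 array each.

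**Figure D3:**
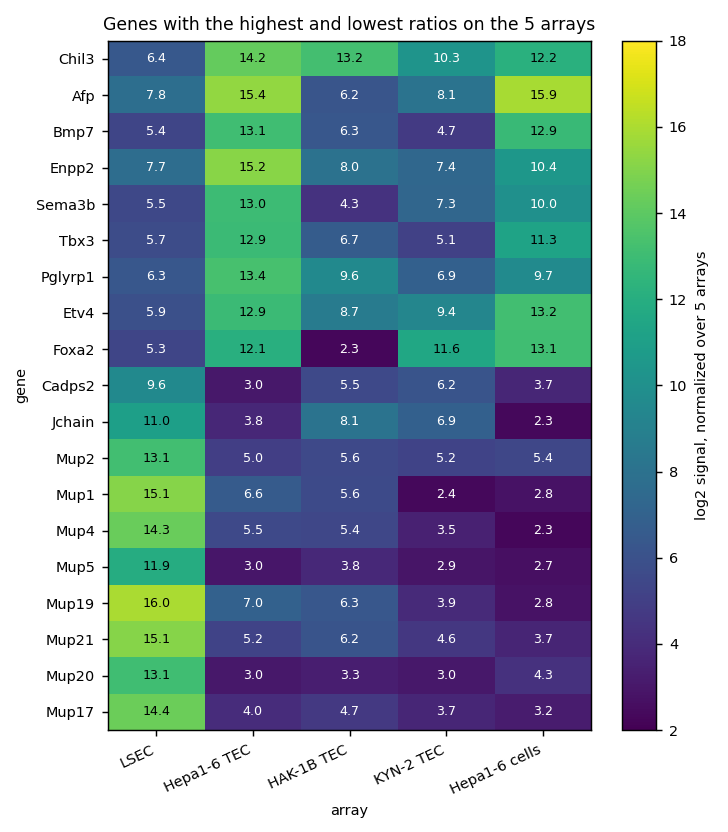
Heat map of 9 of the 10 genes with the highest ratio and the 10 with the lowest (rows, in order of ratio) on all 5 arrays (columns), with the log2 intensity normalized over the 5 arrays as colour and printed in each cell. Afp, Foxa2 and Bmp7 are bright on the array of cultured Hepa1-6 cells, whereas the Mup genes are bright on the LSEC array alone.

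Major urinary proteins, pheromone carriers that hepatocytes secrete and that male mice make in larger amounts, held the lowest 8 ratios. Mup17 had a level of 14.37 in LSECs and 4.72 in Hepa1-6 TECs (806-fold lower), Mup20 13.10 and 3.76 (651-fold) and Mup21 14.98 and 5.81 (576-fold). By their other probes, Mup20 had a ratio of -5.33 and Mup21 of -3.65, so the size of these ratios rests on the probe chosen. Of 11 gene names that start with Mup, 10 were measured on both arrays and 9 were beyond 4-fold lower, with a median ratio of -8.26. Their probes lie on chromosome 4 between 59969824 and 61809669 (mm9), and the genes are near-identical copies whose probes may bind each other's transcripts, so they do not count as separate measurements. After them came Jchain, the joining chain of secreted immunoglobulins, with levels of 11.13 and 4.46 (102-fold lower). Cadps2, a factor of vesicle release, had levels of 9.76 and 3.68 (67.7-fold lower, with a ratio of -3.93 by its other probe). Car3 (57.0-fold), Ntf3 (53.6-fold) and Ces3a (49.99-fold) followed.

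Genes that mark endothelium in general were present in both groups and lower in Hepa1-6 TECs. All 33 genes of a pan-endothelial list were well above background on both arrays, whereas 8 of the 33 were in cultured Hepa1-6 cells. Markers of macrophages, neutrophils and hepatoma were detected on the Hepa1-6 TEC array too, so detection alone does not set the label of the array. Of the 33, 20 were beyond 4-fold lower (against 7.65% of all symbols) and none higher, and the median ratio was -2.33. Kdr, the main VEGF receptor, had a level of 16.16 in LSECs and 12.77 in Hepa1-6 TECs (10.5-fold lower, with a ratio of -1.87 by its other probe), and Tek, the angiopoietin receptor, 12.83 and 8.47 (20.5-fold lower). Ptprb, the phosphatase that acts on the Tek receptor, was 14.5-fold lower, the lectin Clec14a 11.7-fold and the transcription factor Erg 6.00-fold. Cdh5, the cadherin of endothelial junctions, had levels of 14.11 and 11.97 (4.39-fold lower). Pecam1 itself, the protein used for the isolation, had levels of 11.18 and 9.31, a ratio of -1.87 that stayed within 4-fold. Cd34 read 10.71 and 12.17 by its chosen probe, and another of its probes had a ratio of -1.04. Summed over the list, the processed signal, which is not normalized between arrays here or in the sums of other lists, was 913743 in LSECs and 185670 in Hepa1-6 TECs, with Egfl7 the gene of the brightest probe. Over all 5 arrays, the list's median level was 13.59 in LSECs, 11.93 in Hepa1-6 TECs, 12.06 in HAK-1B TECs, 12.70 in KYN-2 TECs and 4.37 in cultured cells.

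Genes by which LSECs differ from other endothelium were lower as well. Of 14 scavenger and endocytic receptor genes, 7 were beyond 4-fold lower (against 7.65% of all symbols) and none higher. The median ratio was -2.04. Ehd3, a membrane trafficking protein of sinusoidal endothelium, had a level of 17.04 in LSECs and 11.91 in Hepa1-6 TECs (35.0-fold lower). Clec4g, a sinusoidal lectin, had levels of 18.09 and 14.20 (14.8-fold lower, with a ratio of -0.88 by its other probe), and Stab2, the hyaluronan receptor of LSECs, 17.28 and 13.94 (10.1-fold lower). All 5 probes of Stab2 were lower, with ratios from -4.36 to -2.89. Lyve1 was the exception within the list, at 11.37 and 12.29, and Colec12, Dab2 and Scarb1 had ratios between -0.84 and -0.70.

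Secreted signals and identity regulators of LSECs showed the same direction. Of 20 genes, 13 were beyond 4-fold lower (against 7.65% of all symbols) and none higher, with a median of -2.54. Wnt2, which sustains the pericentral gene program of hepatocytes, had a level of 14.99 in LSECs and 10.22 in Hepa1-6 TECs (27.2-fold lower). Bmp6, the LSEC signal that sets hepcidin, was 22.6-fold lower and its relative Bmp2 9.72-fold. Rspo3, which amplifies Wnt signals, was 6.04-fold lower, and the coagulation factor gene F8 16.4-fold. Gata4, the transcription factor that specifies LSECs, was at 12.38 and 9.68 (6.49-fold lower), and Maf, another regulator, 4.35-fold lower. Id1, a BMP target, had levels of 11.44 and 13.38 and stayed just within 4-fold. In HAK-1B and KYN-2 TECs, which were compared with the same LSEC array, Wnt2 was at 9.21 and 11.04 on the scale of all 5 arrays, where LSECs were at 15.08 and Hepa1-6 TECs at 10.10.

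**Figure D4:**
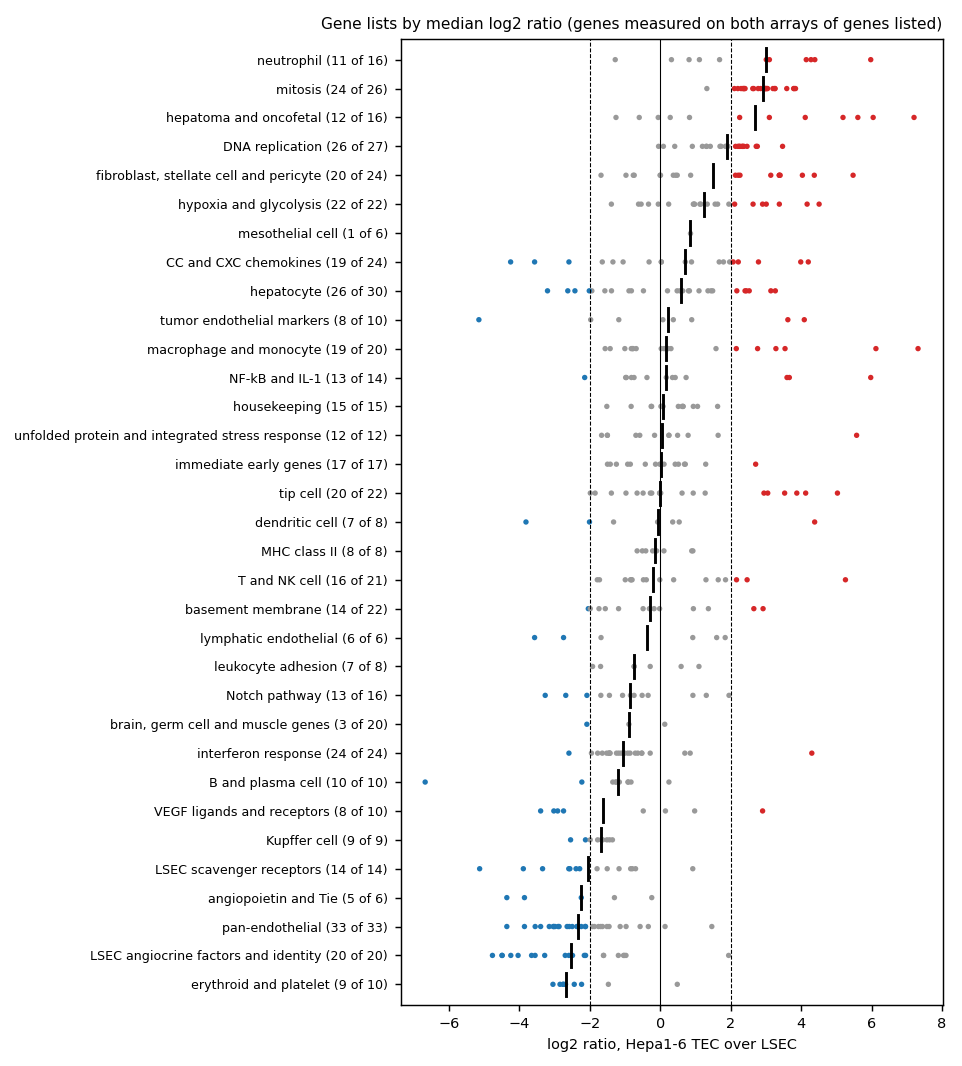
Ratios of the measured genes of each gene list (horizontal axis, log2, Hepa1-6 TEC minus LSEC), 1 point per gene, in red or blue beyond 4-fold, with the median of each list as a bar and dashed lines at 4-fold. The mitosis list lies almost wholly to the right of the 4-fold line, and the pan-endothelial and LSEC lists lie mostly to the left of 0.

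Angiogenic signaling genes did not move as a block. Of 8 measured VEGF ligands and receptors 1 was beyond 4-fold higher and 4 lower (against 5.44% and 7.65% of all symbols). The median ratio was -1.61. Vegfa, the principal angiogenic ligand, had a level of 8.90 in LSECs and 11.80 in Hepa1-6 TECs and was 7.49-fold higher. Its 4 probes had ratios from 1.21 to 5.11. The receptors of the VEGF family were lower, with Kdr as above, Flt1 at 15.94 and 12.92 (8.12-fold lower), Flt4, the receptor for VEGF-C and VEGF-D, at 10.41 and 7.66 (6.71-fold lower) and the co-receptor Nrp1 at 15.46 and 12.55 (7.53-fold lower). Probes of a gene differed, from -3.02 to -0.15 over 4 probes of Flt1 and from -5.36 to -1.08 over 7 of Nrp1. The ligand Pgf was below background in LSECs and at least 4.47-fold higher. The 5 measured genes of the angiopoietin and Tie axis had a median of -2.24. Beyond 4-fold lower were 3 of them (against 7.65% of all symbols), Tek, Ptprb and Tie1, and none was higher. All 3 are also in the pan-endothelial list above, so they are not a separate result. The other 2 stayed within 4-fold. Of 13 measured Notch pathway genes, 3 were beyond 4-fold lower (against 7.65% of all symbols) and none higher. They were the receptor Notch1 (6.42-fold, and -1.90 as the log2 ratio of its other probe), the target Hes1 (9.62-fold) and the ligand Dll1 (4.24-fold). Dll4, the ligand of tip cells, had levels of 9.92 and 8.23.

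Tip cells lead a vascular sprout. Of 20 genes of the tip cell list, 6 were beyond 4-fold higher (against 5.44% of all symbols) and none lower, while the median ratio was -0.00. Igfbp3 had a level of 9.16 in LSECs and 14.19 in Hepa1-6 TECs (32.7-fold higher), the potassium channel subunit Kcne3 6.99 and 11.12 (17.5-fold), and Esm1, a secreted proteoglycan of sprouting endothelium, 9.66 and 13.19 (11.6-fold). Rgcc was 14.7-fold higher, the urokinase receptor Plaur 8.29-fold and the peptide Apln 7.70-fold. Igfbp3 and Plaur were also bright in cultured Hepa1-6 cells, at 15.37 and 13.22 on the scale of all 5 arrays, whereas Kcne3 was not well above background there. Among 8 tumor endothelial markers, with a median of 0.22, Plxdc2 (17.02-fold) and Anpep (12.3-fold) were higher. Enpep, an aminopeptidase that cleaves angiotensin, had levels of 11.45 and 6.30 (35.5-fold lower, with a ratio of -2.76 by its other probe).

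Basement membrane genes varied among themselves, with a median ratio of -0.30 over 14 genes. Lamb1 was 7.56-fold higher (with a ratio of 1.85 by its other probe) and Col18a1, the source of endostatin, 6.31-fold. Col4a5 was 4.12-fold lower, and Col4a4 and Col4a3 were not well above background in Hepa1-6 TECs and at least 29.9-fold and 8.81-fold lower. Of 7 leukocyte adhesion genes none was beyond 4-fold either way, and the median was -0.74.

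Genes of cell division were higher in Hepa1-6 TECs. Of 24 measured mitosis genes, 23 were beyond 4-fold higher, against 5.44% of all symbols, and the median ratio was 2.91. Plk1, a mitotic kinase, had a level of 8.77 in LSECs and 12.61 in Hepa1-6 TECs (14.3-fold higher), Cdc20, which activates the anaphase-promoting complex, 9.02 and 12.82 (13.96-fold), and the cyclin Ccnb1 7.36 and 11.15 (13.8-fold). Mki67, the usual proliferation marker, had levels of 10.50 and 13.16 (6.29-fold). The exception was the kinesin Kif4, at 6.9998 and 8.32. Of 26 DNA replication genes 11 were beyond 4-fold higher and none lower, with a median of 1.90, and Ccne1, the cyclin of S-phase entry, was 11.1-fold higher whereas Pcna had a ratio of -0.05. On the scale of all 5 arrays, the mitosis list had a median level of 7.52 in LSECs, 8.76 in HAK-1B TECs, 9.62 in KYN-2 TECs, 10.88 in Hepa1-6 TECs and 12.40 in cultured Hepa1-6 cells. The Hepa1-6 TEC array thus lay between the other TECs and the tumor cell line. The part of dividing tumor cells in these ratios was not tested.

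Genes induced by low oxygen through HIF, most of them glycolytic enzymes and transporters, were higher in part. Of 22 genes, 7 were beyond 4-fold higher (against 5.44% of all symbols) and none lower, and the median ratio was 1.24. The lactate exporter Slc16a3 had a level of 9.27 in LSECs and 13.78 in Hepa1-6 TECs (22.8-fold higher), and the oxygen sensor Egln3 6.52 and 10.69 (17.995-fold). The glucose transporter Slc2a1 had levels of 9.99 and 13.37 (10.4-fold) and the hexokinase Hk2 8.87 and 11.88 (8.05-fold). Slc16a3 was not well above background in cultured Hepa1-6 cells. The list's median level over all 5 arrays was 10.57 in cultured cells, 11.11 in LSECs, 11.82 in Hepa1-6 TECs, 12.85 in HAK-1B TECs and 13.44 in KYN-2 TECs, an order in which Hepa1-6 TECs were the lowest of the TECs.

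Promoters of the mitosis, DNA replication, hypoxia and pan-endothelial lists were searched for 2 motifs, on both strands, from 250 bases before to 50 after the start of each gene in RefSeq (GRCm38.p6). TTTGAA is the core of the cell cycle homology region found in promoters of mitotic genes. It was present in 16 of 21 mitosis promoters (76.2%), 1 of 21 DNA replication promoters (4.76%), 3 of 20 hypoxia promoters (15.0%), 3 of 15 pan-endothelial promoters (20%) and 17.9% of all 32851 promoters. ACGTG, the core of the hypoxia response element, was present in 15 of 20 hypoxia promoters (75%), 6 of 21 mitosis promoters (28.6%), 7 of 21 DNA replication promoters (33.3%), 2 of 15 pan-endothelial promoters (13.3%) and 19.6% of all promoters. A match is a description of letters and not a bound site. The promoters searched were those found by symbol in the RefSeq table, for 21 of the 26 listed mitosis genes, 21 of 27 DNA replication genes, 20 of 22 hypoxia genes and 15 of 33 pan-endothelial genes, and the other members were not searched. The stretches from 80 bases before to 30 after the start are shown for 4 mitosis genes and 3 glycolysis genes that were beyond 4-fold higher, 5′ to 3′ on the gene's strand, with the motif or its reverse complement in capitals. They are Cdc20 (chr4:118437314-118437423, minus strand), Ube2c (chr2:164769849-164769958, plus), Cdk1 (chr10:69352883-69352992, minus), Ccnb2 (chr9:70421525-70421634, minus), Slc16a3 (chr11:120948987-120949096, plus), Slc2a1 (chr4:119108665-119108774, plus) and Hk2 (chr6:82774425-82774534, minus).
Cdc20: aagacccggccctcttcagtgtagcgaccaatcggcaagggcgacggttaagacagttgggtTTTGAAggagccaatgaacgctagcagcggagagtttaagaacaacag
Ube2c: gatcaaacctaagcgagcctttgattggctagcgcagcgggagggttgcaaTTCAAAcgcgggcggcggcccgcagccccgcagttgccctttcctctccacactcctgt
Cdk1: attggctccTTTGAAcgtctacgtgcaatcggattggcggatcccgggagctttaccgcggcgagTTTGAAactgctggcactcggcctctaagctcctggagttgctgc
Ccnb2: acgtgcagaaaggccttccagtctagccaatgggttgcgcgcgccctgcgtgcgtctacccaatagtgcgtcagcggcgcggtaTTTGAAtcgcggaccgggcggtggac
Slc16a3: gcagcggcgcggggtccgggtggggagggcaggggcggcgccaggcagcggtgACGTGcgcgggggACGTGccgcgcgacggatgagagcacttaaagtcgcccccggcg
Slc2a1: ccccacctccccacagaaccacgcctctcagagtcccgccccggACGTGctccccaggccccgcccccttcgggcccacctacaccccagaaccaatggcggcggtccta
Hk2: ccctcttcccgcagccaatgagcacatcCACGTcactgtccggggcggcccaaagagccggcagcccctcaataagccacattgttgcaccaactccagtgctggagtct

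The capitals mark TTTGAA or TTCAAA in the first 4 stretches, at 2 places in Cdk1, and ACGTG or CACGT in the last 3, at 2 places in Slc16a3. Cdk1 was 4.30-fold higher in Hepa1-6 TECs, Ccnb2 6.17-fold and the ubiquitin-conjugating enzyme Ube2c 12.1-fold.

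Genes of the liver and of hepatoma formed a further group. Of 12 measured hepatoma and oncofetal genes 7 were beyond 4-fold higher (against 5.44% of all symbols) and none lower. The median ratio was 2.68. The simple-epithelium keratin Krt18 had a level of 10.04 in LSECs and 16.08 in Hepa1-6 TECs (66.0-fold higher) and its partner Krt8 8.48 and 14.09 (48.8-fold), and the RNA-binding oncofetal protein Igf2bp3 was 36.5-fold higher. Summed over the list, the processed signal was 3036 in LSECs and 158941 in Hepa1-6 TECs, with Krt18 the gene of the brightest probe. Krt18, Krt8 and Igf2bp3 were at 17.59, 15.27 and 12.21 in cultured Hepa1-6 cells on the scale of all 5 arrays. Epcam, an adhesion protein of epithelia and liver progenitors, was below background in LSECs and at least 13.5-fold higher. On the scale of all 5 arrays, Epcam was at 8.94 in Hepa1-6 TECs and 5.54 in cultured Hepa1-6 cells. Of the same list, Lin28b was at 6.60 and 2.95 and Igf2bp1 at 9.96 and 12.49, so members went both ways. The part of hepatoma cells in the preparation was not tested.

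Hepatocyte genes went both ways, with 6 of 26 beyond 4-fold higher and 4 lower (against 5.44% and 7.65% of all symbols). The median was 0.60. Higher were the fibrinogen chain Fgb (9.63-fold), the retinol carrier Rbp4 (8.82-fold), hemopexin Hpx (5.76-fold), Alb (5.44-fold), Ambp (5.30-fold) and haptoglobin Hp (4.51-fold), all secreted plasma proteins. Alb, or albumin, had a level of 12.97 in LSECs and 15.41 in Hepa1-6 TECs. On the scale of all 5 arrays Alb was at 15.54 in Hepa1-6 TECs and 13.94 in cultured Hepa1-6 cells. Lower were the metabolic enzymes Hpd (9.20-fold), Tdo2 (6.17-fold) and G6pc (5.36-fold) and the protease inhibitor Serpina1c (4.04-fold). The enzyme genes Cyp3a11 and Cps1 were above background on 1 array each, Cyp3a11 in Hepa1-6 TECs (at least 31.0-fold higher) and Cps1 in LSECs (at least 4.70-fold lower). Outside the list, 14 of 36 measured Cyp2 genes were beyond 4-fold lower and 1 higher, and 7 of 9 Serpina3 genes were lower, against 7.65% of all symbols. Probes of similar copies within these families may bind each other's transcripts, so the members do not count as separate measurements. The list's summed signal was 394656 in LSECs and 554346 in Hepa1-6 TECs, and 112475 and 314543 without Slc10a1, whose probe was the brightest of the list and bright on all 5 arrays.

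Myeloid genes were higher on the Hepa1-6 TEC array in selected members. Of 11 measured neutrophil genes 6 were beyond 4-fold higher (against 5.44% of all symbols) and none lower. The median ratio was 3.01. S100a9, a calcium-binding protein abundant in neutrophils, had a level of 9.61 in LSECs and 14.001 in Hepa1-6 TECs (20.9-fold higher) and its partner S100a8 8.08 and 12.22 (17.7-fold), and the collagenase Mmp8 was 19.4-fold higher. Il1r2, the decoy receptor of IL-1, had levels of 7.28 and 13.25. Mmp9, the gelatinase of neutrophil granules, was below background in LSECs (5.20), at 13.24 in Hepa1-6 TECs and at least 236-fold higher. The neutrophil list summed to 74004 in LSECs and 87874 in Hepa1-6 TECs, and to 6078 and 47491 without Csf3r, the gene of its brightest probe.

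Of 19 macrophage and monocyte genes 6 were beyond 4-fold higher (against 5.44% of all symbols) and none lower, with a median of 0.17. The summed signal was 574685 in LSECs and 609985 in Hepa1-6 TECs, with Lyz2 the gene of the brightest probe. Osteopontin, or Spp1, had a level of 9.96 in LSECs and 13.51 in Hepa1-6 TECs (11.7-fold higher), and the monocyte chemokine receptor Ccr2 had levels of 7.16 and 10.44 (9.74-fold). Spp1 was also well above background in cultured Hepa1-6 cells, and Ccr2 was not. Normalized over all 5 arrays, Spp1 was at 13.53 in Hepa1-6 TECs and 11.86 in cultured cells. Genes of Kupffer cells, the resident macrophages of the liver, had a median of -1.68 over 9 genes, all of them with ratios below 0. Cd5l was 5.84-fold lower and Clec4f 4.36-fold lower, while the other 7 stayed within 4-fold. Ptprc, the pan-leukocyte protein CD45, had levels of 12.85 and 12.70. Leukocyte markers were thus well above background in both preparations, and the part of these cells in the other ratios was not tested.

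Lymphoid, blood and stromal markers completed the list of other cells. Gzma, a granzyme of cytotoxic lymphocytes, had a level of 9.504 in LSECs and 14.76 in Hepa1-6 TECs (38.3-fold higher). The processed signal of the T and NK cell list summed to 10000.2 and 43837 with Gzma and to 9297 and 11707 without it. Of these 16 genes 3 were beyond 4-fold higher (against 5.44% of all symbols), and the median was -0.20. The 10 measured genes of B and plasma cells had a median of -1.21, with Jchain and Ms4a1 (4.68-fold by 1 probe, and a ratio of 0.80 by the other) beyond 4-fold lower, and the other 8 within it. Of 7 dendritic cell genes 1 was higher and 2 lower, with a median of -0.07. They were Itgax, which macrophages also express (20.9-fold higher), Zbtb46 (14.1-fold lower) and Clec9a (4.03-fold lower). Which cell types these ratios came from was not tested. Of 9 erythroid and platelet genes 7 were lower (against 7.65% of all symbols), with a median of -2.69. The brightest probe was in Hba-a1 (6.46-fold lower). Of 20 fibroblast, stellate cell and pericyte genes 10 were beyond 4-fold higher (against 5.44% of all symbols) and none lower. The median was 1.499. Fibronectin Fn1 had levels of 10.62 and 16.09 (44.5-fold higher, and on the scale of all 5 arrays 16.17 in Hepa1-6 TECs and 16.52 in cultured Hepa1-6 cells), collagen Col1a1 6.25 and 10.62 (20.7-fold, and not well above background in cultured cells) and Timp1, an inhibitor of metalloproteinases, was 16.4-fold higher. Timp1 was at 11.61 in Hepa1-6 TECs and 13.22 in cultured cells on the scale of all 5 arrays. The 6 lymphatic endothelial genes had a median of -0.38 with 2 beyond 4-fold lower, and 1 of 6 mesothelial genes was measured on both arrays. The fibroblast list summed to 213392 and 273455, and to 17523 and 145232 without Sparc, the gene of its brightest probe. The part of stromal cells in these ratios was not tested.

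Inflammatory genes differed member by member. Among 19 chemokines 5 were beyond 4-fold higher and 3 lower (against 5.44% and 7.65% of all symbols), and the median was 0.71. The monocyte attractants Ccl9 (18.4-fold) and Ccl12 (15.9-fold) were higher, and the lymphoid chemokines Cxcl13 (19.01-fold) and Ccl21a (11.9-fold) lower. Interferon response genes had a median of -1.07 with 1 of 24 beyond 4-fold higher and 1 lower, near or below the 5.44% and 7.65% of all symbols. The higher gene was Oas1a, at 5.70 and 10.001 (19.7-fold), which on the scale of all 5 arrays was at 9.87 in Hepa1-6 TECs, 11.51 in cultured Hepa1-6 cells and not well above background in HAK-1B or KYN-2 TECs. Of 13 NF-kB and IL-1 genes 3 were beyond 4-fold higher and 1 lower, with a median of 0.17. Beside Il1r2, Il1rn, the IL-1 receptor antagonist, was 12.7-fold higher and Ptgs2, or cyclooxygenase 2, 12.1-fold. The 8 genes of MHC class II all stayed within 4-fold, with a median of -0.16.

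The 17 immediate early genes, which respond to cell isolation, had a median of 0.02, and 1 of them, Egr2, was beyond 4-fold higher (6.54-fold). The 12 genes of the unfolded protein and integrated stress response had a median of 0.04, and Asns, which makes asparagine, was the member beyond 4-fold (47.7-fold higher). Of 20 genes of brain, germ cells and muscle, which liver endothelium should lack, 3 were well above background on both arrays and 9 on the Hepa1-6 TEC array only, and the 3 had a median of -0.89. None of 15 housekeeping genes was beyond 4-fold, the median was 0.08, and Actb had levels of 17.98 and 18.001.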

How the data were processed

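RNA of CD31-selected cells was extracted with TRIzol and a column kit (the labels and the methods name different kits), amplified, labelled with Cy3 and hybridized to 1-colour Agilent mouse arrays, which were read with Agilent Feature Extraction 9.5.1.1 per the labels. The authors deposited, for each spot, an intensity on a linear scale that is background-subtracted within the array and not normalized between arrays, the raw mean intensity and local background, and flags of 0 or 1 (a score) for signal well above background and for irregular spots. They also deposited a table of normalized intensity values, used here as an alternative. Probe positions are those of mm9 in the files.

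Control spots were left out and repeated spots of a probe averaged. Intensities were log2 transformed and quantile normalized over the 2 arrays compared, and separately over all 5 for the side values. A probe was kept when at least 50% of its spots were well above background on each of the 2 arrays, and a gene took its kept probe with the highest mean level. A gene was counted beyond 4-fold at a log2 ratio above 2 or below -2. For a gene above background on 1 array only, the bound was taken against the higher of its own level and the lowest level well above background on the other array. No test was made with 1 array a group. Named were the 10 highest and 10 lowest symbols, the up to 4 largest ratios of each of the gene lists, 10 markers whatever their ratio and the genes next to the 4-fold boundary, and other members where a sentence describes a list. Some genes that this rule names are not reported here. The members and lists were chosen with earlier results of these data known. Of 35886 probes with a RefSeq accession, 32994 matched a RefSeq table (GRCm38.p6), in which 1535 had another symbol than on the array, whose names were kept. The alternatives were other normalizations, normexp background correction (offset 50), the deposited table, other filters, the median over probes, spots without marks, 8-fold and the rule of size of the methods, a Z-score of 2 or -2 with a ratio of 1.5 or 0.66. The calculation was tested on simulated data. Python 3.11.15, numpy 2.4.6, pandas 2.3.3, matplotlib 3.10.9, R 4.3.3 and limma 3.58.1 were used.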

Additional observations from a re-analysis of the deposited data

Results flagged for a closer look

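The scanner software marked 87 spots on the Hepa1-6 TEC array as non-uniform, a mark that 0 spots carried on the LSEC and HAK-1B TEC arrays, 4 on that of KYN-2 TECs and 1 for cultured Hepa1-6 cells. Of the gene names measured on both arrays, 21 rest on a probe with a marked spot, and 15 of these were beyond 4-fold higher and 1 lower. They include 3 of the 10 names with the highest ratio, none of which is a plain symbol, and the largest ratio among them was 11.64. Among plain symbols 9 of the higher genes are affected, Lrp6 (62.9-fold higher, with a ratio of -0.73 by its other probe) and Dnajc21 (45.2-fold) among them. Neither was named as a result.

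On the Hepa1-6 TEC array 14240 probes were well above background that were not so on the LSEC array, against 655 the other way. These probes lie outside the counts of genes beyond 4-fold, and the bounds given as higher (Xist, Mmp9, Epcam, Pgf and Cyp3a11) rest on them. Of 20 genes of brain, germ cells and muscle, 9 were among the genes seen on the Hepa1-6 TEC array only. Whether these probes read transcripts or background was not tested.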

How the results depend on the processing

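No paired analysis was possible because each group had 1 array. The higher and lower counts (894 and 1845 gene names) kept within 1.5 times under most alternatives, with these exceptions. Higher names were 4108 with probes above background on at least 1 array, 4094 with no filter, 511 in the brighter part of the probes and 354 at 8-fold. Lower names were 981 after scaling to the 75th percentile, 702 after normexp, 2787 with no filter, 576 in the brighter part, 457 at 8-fold and 488 by the Z-score rule. Higher names outnumbered lower ones in 4 settings: the Z-score rule (661 higher), the 75th percentile (1081 higher), probes above background on at least 1 array (2289 lower) and no filter. Centring the ratios on their median (-0.26 over all names), chosen after seeing the data, gave 1177 and 1327. Of 198 list medians 188 moved by less than 0.46, the SD between probes of a gene. With probes above background on at least 1 array the median was -0.17 for VEGF genes, 1.28 for chemokines, 3.63 for hepatoma genes, 0.85 for fibroblast genes and 0.15 for brain, germ cell and muscle genes, where the sign turned from -0.89. Normexp gave 2.20 for hepatoma, 2.37 for neutrophil, 1.01 for fibroblast and -2.16 for erythroid and platelet genes, and the 75th percentile gave 1.49 for the mesothelial gene. Over the 6 settings of normalization, background and probe the ratios of 2 of 155 named genes crossed 0, both within 4-fold, Actb (-0.13 to 0.27) and Gad1 (-0.27 to 0.51). Of 112 named genes beyond 4-fold, 97 stayed so throughout. Flt1 (-3.14 to -1.86), Hpd (-3.67 to -1.73), Tdo2 (-3.04 to -1.55), Ms4a1 (-2.34 to -0.71), Col4a5 (-2.14 to -0.64), Dll1, Il1r1, Clec4f, Clec9a, Gzmb, Pdcd1 and the 4 genes just inside the boundary did not. The cause of these differences was not tested.

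With 1 array a group, the spread between animals is unknown and no ratio has an error. Slide, preparation and group cannot be told apart. The lowest signal well above background was 27.0 on the LSEC array and 16.7 on the Hepa1-6 TEC array, and ratios of dim genes are the least certain. Of 171 higher genes with several probes, 135 had all probes in the same direction and 71 had all beyond 4-fold. Of 332 lower genes the counts were 306 and 149.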

Other observations

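Digestive enzymes of the exocrine pancreas were well above background on the LSEC array and lower in Hepa1-6 TECs. This list of 20 genes was written after the values had been seen. Of the 18 measured genes 13 were beyond 4-fold lower, against 7.65% of all symbols, and none higher, with a median ratio of -3.03. The chymotrypsin Ctrc had a level of 9.79 in LSECs and 4.24 in Hepa1-6 TECs (46.7-fold lower, with a ratio of -2.13 by its other probe). The carboxypeptidase Cpa1 had levels of 8.88 and 3.71 (36.1-fold lower) and the amylase Amy2a5 11.75 and 7.64 (17.4-fold). Over all 5 arrays, Amy2a5 was at 9.59 in HAK-1B TECs and was not well above background in KYN-2 TECs or cultured Hepa1-6 cells. Trypsin genes of this family are near-identical copies, and their probes are not independent.

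A list for serine, glycine and asparagine synthesis was also written after the values had been seen. It holds the amino acid transporter genes Slc7a5 and Slc3a2 and the folate enzyme genes Mthfd2 and Aldh1l2 too. Of its 10 measured genes 6 were beyond 4-fold higher, against 5.44% of all symbols, and none lower, with a median of 2.16. Shmt1, among the 6, had a ratio of 0.15 by its other probe. Phgdh, the first enzyme of serine synthesis, had a level of 8.78 in LSECs and 14.95 in Hepa1-6 TECs (72.1-fold higher), and its successor Psat1 7.42 and 12.68 (38.4-fold). Psph, the last enzyme of the same path, was at 10.16 and 10.04. On the scale of all 5 arrays, Phgdh was at 16.88 in cultured Hepa1-6 cells, 9.41 in HAK-1B TECs and 10.71 in KYN-2 TECs. Of 8 measured transcription factors of the foregut and liver, listed in the same way, 3 were beyond 4-fold higher, Tbx3, Foxa2 and Onecut1 (5.94-fold), against 5.44% of all symbols, while Nr5a2 (-1.70), Cebpa (-0.66) and Nr1h4 (-0.65) had ratios below 0. Hnf4a was at 8.66 and 10.25, and on the scale of all 5 arrays at 10.13 in Hepa1-6 TECs and 13.52 in cultured Hepa1-6 cells.

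A further list written after the values had been seen, of 10 macrophage and granulocyte genes near the top of the ratios, was chosen for its direction. Among its members Clec4e, a receptor for mycobacterial glycolipids, had a level of 6.71 in LSECs and 11.80 in Hepa1-6 TECs (33.97-fold higher), F10, coagulation factor X, 8.54 and 13.44 (29.8-fold), and Padi4, the enzyme that citrullinates histones in neutrophils, 6.46 and 11.27 (28.1-fold). All 3 were well above background in HAK-1B and KYN-2 TECs and not in cultured Hepa1-6 cells.

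Of 46 measured histone genes 9 (19.6%) were beyond 4-fold higher, against 5.44% of all symbols, and none lower, with a median of 1.07. Of 94 ribosomal protein genes 1 was lower and none higher, with a median of 0.51, and of 44 Nduf genes of respiratory complex I none was beyond 4-fold, with a median of 0.31. Of 66 olfactory receptor genes well above background on both arrays, 13 (19.7%) were lower and none higher, against 7.65% of all symbols lower and 503 of the 3355 symbols with the lowest mean level. Among 1668 lincRNA names 28 (1.68%) were higher and 237 (14.2%) lower, against 4.51% and 9.31% of all names.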
